A study of Mus musculus with 9 samples.

Results

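DNA damage signalling and repair genes were described as a module of 51 genes, chosen by symbol, out of 27179 genes in the deposited table, and all 51 were found there once. Poly(A) RNA was measured in liver pieces (m-lobe) of 9 C57BL/6J mice labelled as wild type. At 17 months of age every mouse received, by retro-orbital injection, 3e11 vector genomes of AAV8 with saCas9 (a small RNA-guided DNA nuclease), and the liver was taken 3 weeks later. The TBG promoter restricts saCas9 to hepatocytes, whereas the RNA came from all cells of the tissue. In 4 mice the U6-driven guide RNA was directed at the Rosa26 locus (sgRosa26, libraries A to D), and in 5 mice at Ccnd1 (sgCcnd1, libraries E to I), which encodes cyclin D1. Both groups therefore carried the nuclease and a guide, and a group without a DNA cut was not analysed here, so what cutting itself does to these genes cannot be read from the comparison. The letters only name the libraries. Hepatocyte, Kupffer cell, endothelial, stellate and cholangiocyte markers were all present in every group, with Alb and the other hepatocyte markers at by far the highest levels.

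Cells keep several routes to mend DNA. Breaks of both strands are sensed by the kinases ATM and ATR and are rejoined by end joining, which is available in resting cells, or copied back from a sister chromatid by homologous recombination, which operates in S and G2 phase. Altered or mispaired bases on a single strand are cut out and resynthesised by base excision, nucleotide excision or mismatch repair. Adult hepatocytes rarely divide, and many genes of homologous recombination are transcribed mainly in dividing cells.

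Expression is given as normalized counts, which are reads per gene divided by a size factor for each library. Depth was 10.8 to 20.2 M reads in units of 1e6 per library, lowest in library I. Ccnd1 fell from 744 ± 110 (SD, n = 4) to 362 ± 40.6 normalized counts (SD, n = 5), with a limma adjusted p of 0.0116, and each sgCcnd1 library was below all controls, so the labels matched the targeted gene. The adjusted p was 0.0857 without B, 0.0558 without D, 0.0587 without F, 0.0612 without H and 0.0626 without I, with a log2 fold change from -1.11 to -0.96 whichever library was left out. The Rosa26 transcript Gt(ROSA)26Sor was at 114 ± 29.5 and 116 ± 11.5 normalized counts. Library H of the sgCcnd1 group stood apart in the Y-linked gene Ddx3y, with 2.00 normalized counts there and 810 to 1154 elsewhere. The labels used here do not give the sex of the animals, and the cause was not tested.

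The 51 repair genes spanned a wide range of levels (plot of levels by library and route). Levels are compared between genes as normalized counts per kb of exon, over the union of all annotated exons. The median of the control means was 25.6 per kb over the 51 genes. By route it was 48.9 for base excision, break repair of a single strand and direct reversal, 40.5 for nucleotide excision, 26.4 for end joining, 20.9 for damage signalling and 5.32 for homologous and interstrand crosslink repair. Msh6, the only mismatch repair member, was at 55.3 ± 7.26 per kb (SD, n = 4). The highest member was Ddb1, an adaptor of a ubiquitin ligase that serves nucleotide excision repair among other tasks, at 559 ± 88.7 per kb. Parp3, a break-sensing ADP-ribosyltransferase that aids end joining, followed at 251 ± 11.9 per kb. Next came Xrcc5, which encodes the larger subunit of the Ku end-binding complex, at 150 ± 8.09 per kb. The lowest were Exo1, an exonuclease of recombination and mismatch repair, at 0.193 ± 0.227 per kb, and Polq, the polymerase of microhomology-mediated end joining, at 0.394 ± 0.169 per kb. The levels of Exo1 and Polq did not differ beyond their spread.

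**Figure D1:**
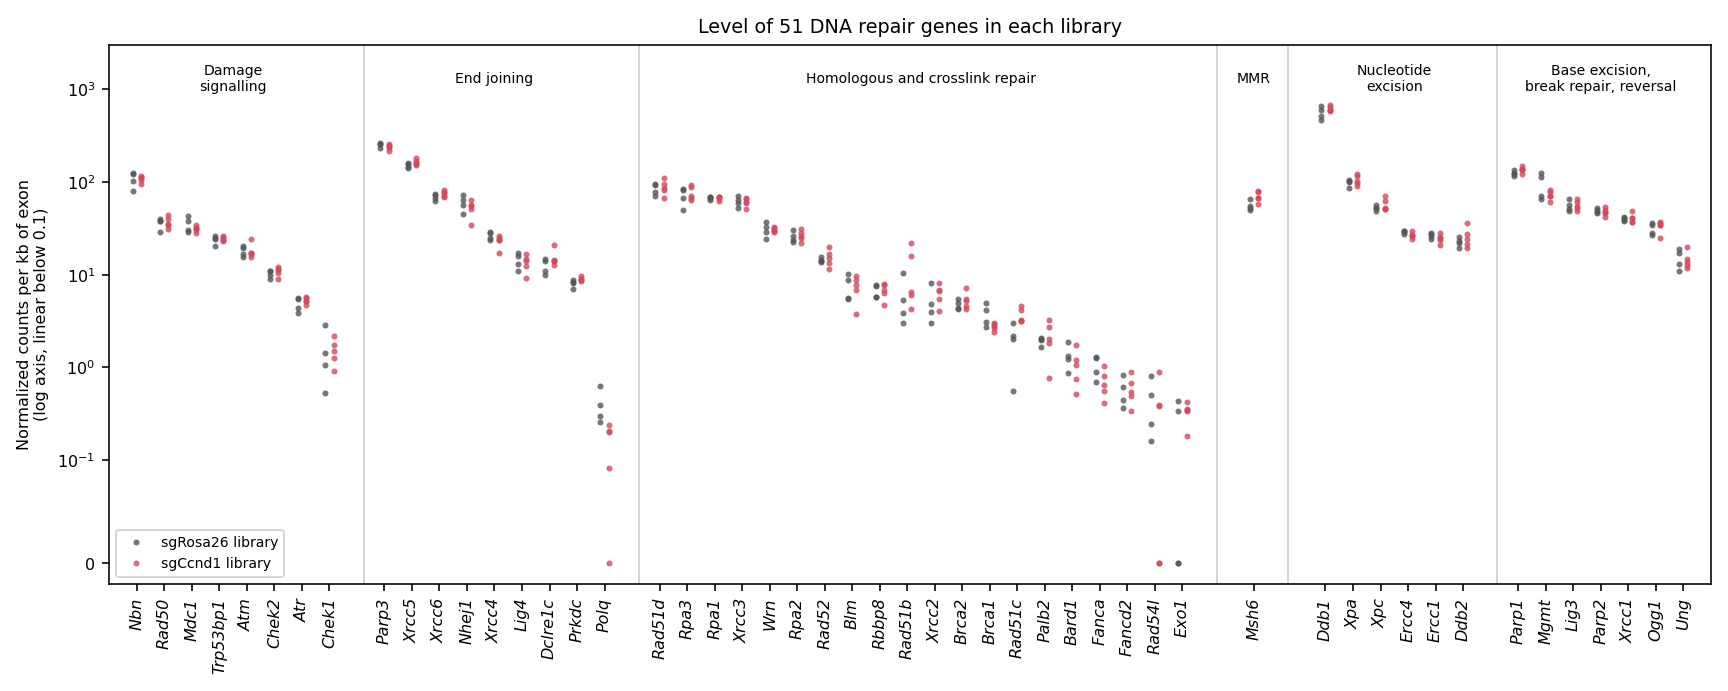
Normalized counts per kb of exon (vertical log axis, linear below 0.1) for the 51 repair genes, grouped by route (MMR, mismatch repair) and ordered by control mean, with a point for each sgRosa26 library (grey) and each sgCcnd1 library (red). The genes run from 559 per kb for Ddb1 to 0.193 per kb for Exo1 in the controls, and the colours overlap in every gene but Rad51c and Polq.

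None of the repair genes was called between the groups. The test was limma on log2(normalized count + 1), over 12993 genes whose mean reached 10 normalized counts. Of the 51 members, 44 entered this fit and 0 had an adjusted p under 0.05, where 0.0077% of all genes tested did (1 gene, Ccnd1). At an unadjusted p under 0.05 there were 2 members, or 4.55%, against 11.0% of all genes tested. Both were higher in sgCcnd1 (5.22% of all genes tested were) and 0 were lower (5.74% of all genes tested were). These were Msh6 and Rad51c. DESeq2 on recovered reads called 0 members, against 0.8% of all genes tested, and had 2 at an unadjusted p under 0.05 (10.2% of all genes). The edgeR quasi-likelihood test also called 0 members (0.0077% of all genes) and had 2 at an unadjusted p under 0.05 (10.6% of all genes). In DESeq2 and edgeR these 2 were again Msh6 and Rad51c, but without library H they were Msh6 and Rad51b. The median log2 fold change, sgCcnd1 minus sgRosa26, was 0.04 over the 44 members and 0.01 over all genes tested. It was above 0 in 29 of the 44 members, or 65.9%, and in 52.9% of all genes tested. The sign turned in 19 of the 44 members when some library was left out, so for these a direction cannot be read: Atm, Trp53bp1, Rad50, Nbn, Lig4, Palb2, Rad51d, Rad52, Xrcc3, Rpa1, Rpa2, Rpa3, Rbbp8, Blm, Wrn, Xrcc1, Lig3, Parp2 and Ung.

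The fit set limits to how large a change could be. The 95% interval of the log2 fold change lay within a 2-fold change in either direction for 42 of the 44 members, and within a 1.5-fold change for 34. The exceptions to the 2-fold bound were Rad51b and Rad51c (plot of differences with intervals). The narrowest interval was that of Parp3, at 959, 951, 863 and 940.1 normalized counts in A to D and 890.4, 953, 854, 806 and 896 in E to I, from -0.25 to 0.09. The median SD between libraries of a group was 0.20 on the log2 scale for the members and also 0.20 over all genes tested. Markers of T, B and NK cells were lower in sgCcnd1 for 8 of 8 genes, 5 of them at an unadjusted p under 0.05 (5.74% of all genes tested were lower at that p), with a summed level of 346 to 476 normalized counts in sgRosa26 and 192 to 440 in sgCcnd1. Stellate cell markers were lower for 4 of 5 genes, at a summed 3072 to 4904 and 2845 to 4152. Those of cholangiocytes were lower for 3 of 5, at 928 to 1906 and 750 to 1165, and those of Kupffer cells and macrophages for 4 of 6, at 1759 to 2180 and 1585 to 2019. In the last class 1 of 6, Cd68, was at an unadjusted p under 0.05 in limma, and 2 were higher. DESeq2 called 1 marker of that class at an adjusted p under 0.05 (0.8% of all genes tested). The stellate cell and cholangiocyte classes each had 1 of 5 lower at an unadjusted p under 0.05 in limma. Over all classes 26 of 35 markers were lower, 8 of them at an unadjusted p under 0.05 in limma, and 0 were higher at that p. None was at 0. The part of these markers in the values of the repair genes was not tested, and in whole tissue fewer cells of a type and less RNA per cell cannot be told apart.

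**Figure D2:**
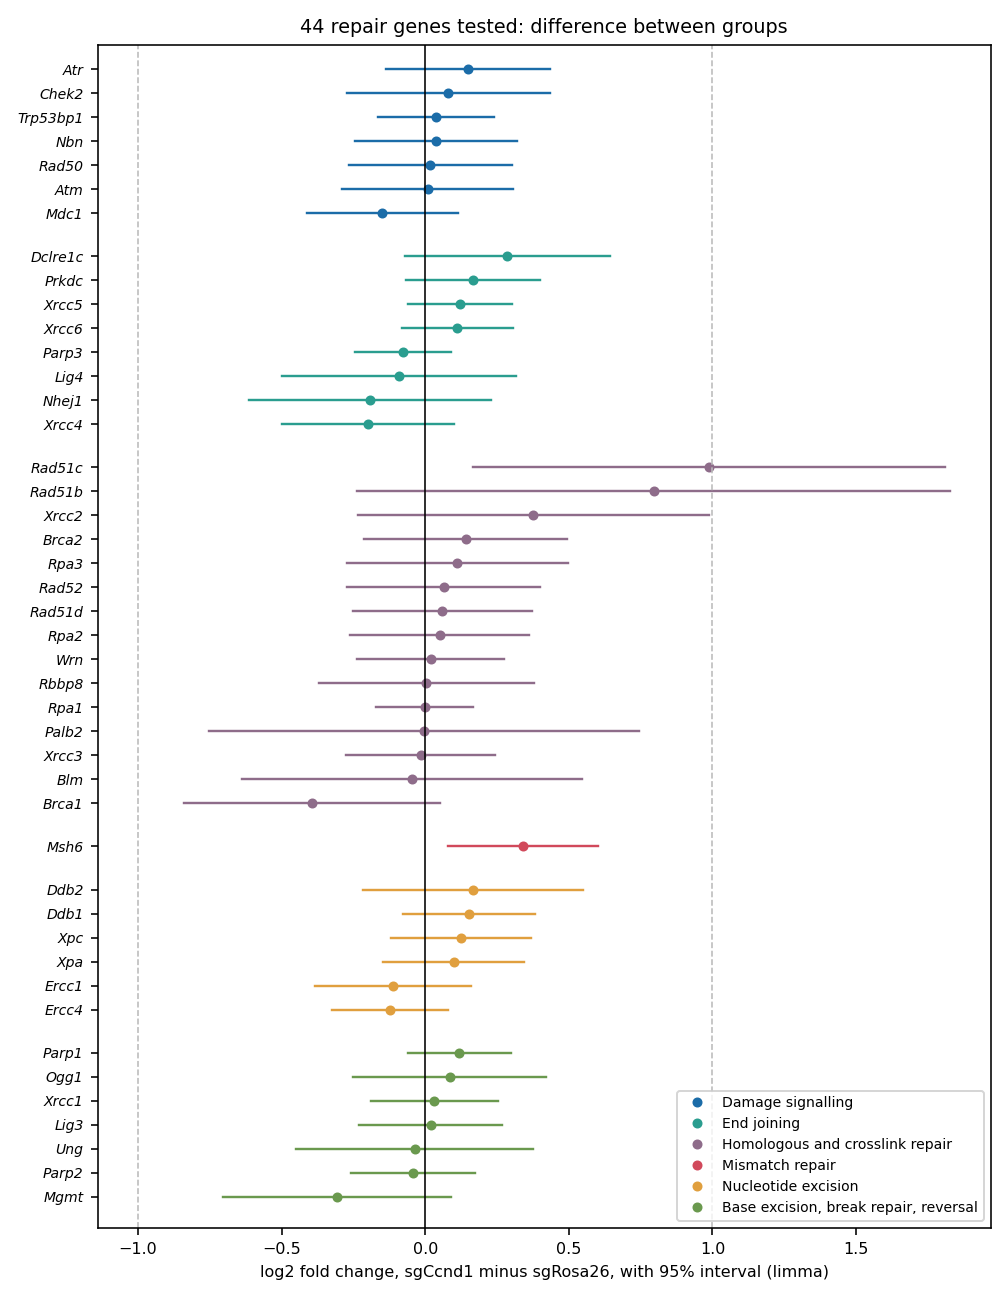
Difference between groups (log2 fold change, sgCcnd1 minus sgRosa26, horizontal axis) with its 95% interval from limma for each of the 44 repair genes tested, coloured by route; dashed lines mark a 2-fold change. The intervals of 42 genes include 0, and those of Msh6 and Rad51c lie above it.

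In damage signalling, 7 of 8 members were tested, 6 were above 0 and 1 below, and log2 fold changes ran from -0.15 to 0.15 with a median of 0.04. All 7 intervals lay within a 1.5-fold change. Atm encodes the kinase that is switched on at breaks. It was at 208, 171, 199 and 160.2 normalized counts in A to D and at 178, 161, 248, 177 and 170.3 in E to I. The groups overlapped, library G was the highest of all 9, and the log2 fold change was 0.01 (95% interval -0.29 to 0.31, limma adjusted p = 0.989). Its sister kinase Atr, which answers to stalled replication forks, was at 91.3 to 131 in the controls and 112 to 134 in sgCcnd1. The sensors Rad50 and Nbn, partners in the complex that tethers broken ends, stood at 0.02 and 0.04 on the log2 scale, and the scaffolds Trp53bp1 and Mdc1 at 0.04 and -0.15. When a library was left out Mdc1 ran from -0.23 to -0.050. Chek2, a kinase downstream of ATM, was at 0.08 (0.029 to 0.14 when a library was left out). Chek1, the kinase downstream of ATR, was too low for the fit, at 2.46, 13.1, 6.57 and 4.86 normalized counts in A to D and 6.86, 8.06, 5.87, 10.0 and 4.26 in E to I.

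In end joining, 8 of 9 members were tested, 4 above 0 and 4 below, with log2 fold changes from -0.20 to 0.29, a median of 0.02 and 0 at an unadjusted p under 0.05. Xrcc5 was at 398, 364, 404 and 367 normalized counts in A to D and 395, 432, 389.6, 413 and 457 in E to I, a log2 fold change of 0.12 (95% interval -0.06 to 0.30, limma adjusted p = 0.612). Xrcc6, its Ku partner, was at 282, 324, 301 and 328 in A to D and 307, 344, 336, 317 and 365 in E to I, or 0.11 (interval -0.08 to 0.30). Libraries F, H and I exceeded every control for Xrcc5, and F, G and I for Xrcc6. Prkdc encodes the kinase that Ku recruits. It was at 109, 91.2, 116 and 107 in A to D and 114, 118, 117, 119 and 126 in E to I, with 4 of 5 sgCcnd1 libraries above all controls and a log2 fold change of 0.17 (interval -0.07 to 0.40, limma adjusted p = 0.586). Without library B, the lowest control, the value for Prkdc was 0.098, and without library A that for Xrcc6 was 0.068. Dclre1c, the Artemis nuclease that trims ends, was at 92.2 to 137 in the controls and 118 to 193 in sgCcnd1, or 0.29 on the log2 scale, and 0.17 without library H, the only one above all controls.

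Lig4, the ligase of end joining, was at 88.5, 57.0, 82.6 and 67.0 normalized counts in A to D and 86.1, 64.5, 48.0, 72.0 and 76.6 in E to I. Its log2 fold change was -0.09 (interval -0.50 to 0.32), and the sign turned without library A or without library G. Its partner Xrcc4 was at -0.20 and the scaffold Nhej1 at -0.19, with adjusted p-values of 0.621 and 0.742 in limma. When a library was left out, Xrcc4 ran from -0.25 to -0.10 and Nhej1 from -0.31 to -0.05.

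Polq lay under the level needed for the fit. It had 2.46, 6.14, 3.75 and 2.91 normalized counts in A to D, from 16 reads, and 2.29, 0.895, 1.96, 2.00 and 0 in E to I, from 8 reads. All 5 sgCcnd1 libraries were below all controls. Among all genes with a read, 3.07% did not overlap between groups. In limma without the filter, Polq had an unadjusted p of 0.0202, where 9.36% of genes were under 0.05, and its adjusted p was 0.435. These are single-digit reads per library, so a few reads decide the values.

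In homologous and interstrand crosslink repair, 15 of 20 members were tested, 10 above 0 and 5 below, with a median log2 fold change of 0.05. The range, from -0.39 to 0.99, was the widest of the routes. Rad51c, which acts in homologous recombination, was at 2.46, 9.64, 13.1 and 8.74 normalized counts in A to D and at 13.7, 14.3, 13.7, 18 and 19.9 in E to I. All 5 sgCcnd1 libraries were above all controls, and it was the only tested member whose groups did not overlap (1 of 44, where 3.89% of all genes tested did not). The log2 fold change was 0.99 (interval 0.17 to 1.81, unadjusted p = 0.0223, limma adjusted p = 0.374). The counts were low, 36 reads in all controls and 80 in all sgCcnd1 libraries. The value was 0.52 with a pseudocount of 10, and 0.56 with an unadjusted p of 0.0617 without library A, the lowest control.

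Rad51b, Rad51d, Xrcc2 and Xrcc3, which act in the same route, differed in level and in spread. Rad51b was at 39.3, 20.2, 11.3 and 14.6 normalized counts in A to D and 24.4, 22.4, 83.2, 16.0 and 59.6 in E to I. Libraries G and I were far above the rest, the groups overlapped, and the log2 fold change of 0.80 had an interval from -0.24 to 1.83. Without H its log2 fold change was 1.05 with an unadjusted p of 0.0416, without A it was 1.13 with an unadjusted p of 0.0347, and without G it was 0.48. Xrcc2 was at 15.5 to 41.8 in the controls and 21.3 to 42.6 in sgCcnd1, or 0.38 on the log2 scale, and from 0.17 to 0.63 when a library was left out. Rad51d and Xrcc3, the most abundant of these at 83.9 and 61.7 per kb in the controls, were at 0.06 and -0.02, and the sign of each turned when a library was left out.

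Neither Brca1 nor Brca2 passed the threshold. Brca1, which steers break ends towards recombination, was at 35.7, 42.1, 23.5 and 26.2 normalized counts in A to D and 23.6, 22.4, 20.6, 25.0 and 25.5 in E to I. Libraries A and B were high, C and D were at the level of sgCcnd1, and the log2 fold change was -0.39 (interval -0.84 to 0.05, limma adjusted p = 0.504). Without library C it was -0.52, with an unadjusted p of 0.0304, and without library B, the highest control, it was -0.25. Brca2, which acts in homologous recombination, was at 57.8, 67.5, 75.1 and 59.2 in A to D and 58.7, 70.7, 96.9, 62.0 and 73.8 in E to I, with G alone above the controls and a log2 fold change of 0.14 (interval -0.21 to 0.49). Without G the value for Brca2 was 0.032. Palb2, the bridge between them, was at 12.3 to 15.0 and 5.68 to 23.5. 

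The subunits of RPA, the complex that coats exposed DNA strands, lay close to 0, with log2 fold changes of -0.0028 for Rpa1, 0.05 for Rpa2 and 0.11 for Rpa3 (-0.045 to 0.20 when a library was left out). The same held for the helicases Wrn (0.02) and Blm (-0.05), for Rad52 (0.06) and for Rbbp8 (0.0035), which starts the resection of ends. All of their intervals lay within a 2-fold change. The 5 members of this route under the filter were Bard1, Rad54l, Exo1, Fanca and Fancd2, which are needed for recombination or crosslink repair. Their means were 7.53, 3.28, 1.63, 9.06 and 4.48 normalized counts in the controls and 5.98, 2.56, 2.78, 6.06 and 4.64 in sgCcnd1, in the same order. The groups overlapped in each, and differences at this depth were within a handful of reads per library.

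Mismatch repair was represented by Msh6, which takes part in recognising mispaired bases. It was at 239, 214, 285 and 224 normalized counts in A to D and 348, 289, 254, 292 and 341 in E to I. In sgCcnd1 4 of 5 libraries were above all controls, and library G lay between control libraries. The log2 fold change was 0.34 (interval 0.08 to 0.60), the smallest p among the members (unadjusted p = 0.0149, limma adjusted p = 0.338). Leaving out any library kept it between 0.29 and 0.42, with an unadjusted p of at most 0.0479. It had 973 reads in the controls and 1571 in sgCcnd1, far more than Rad51c, and did not pass the adjustment over all genes.

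**Figure D3:**
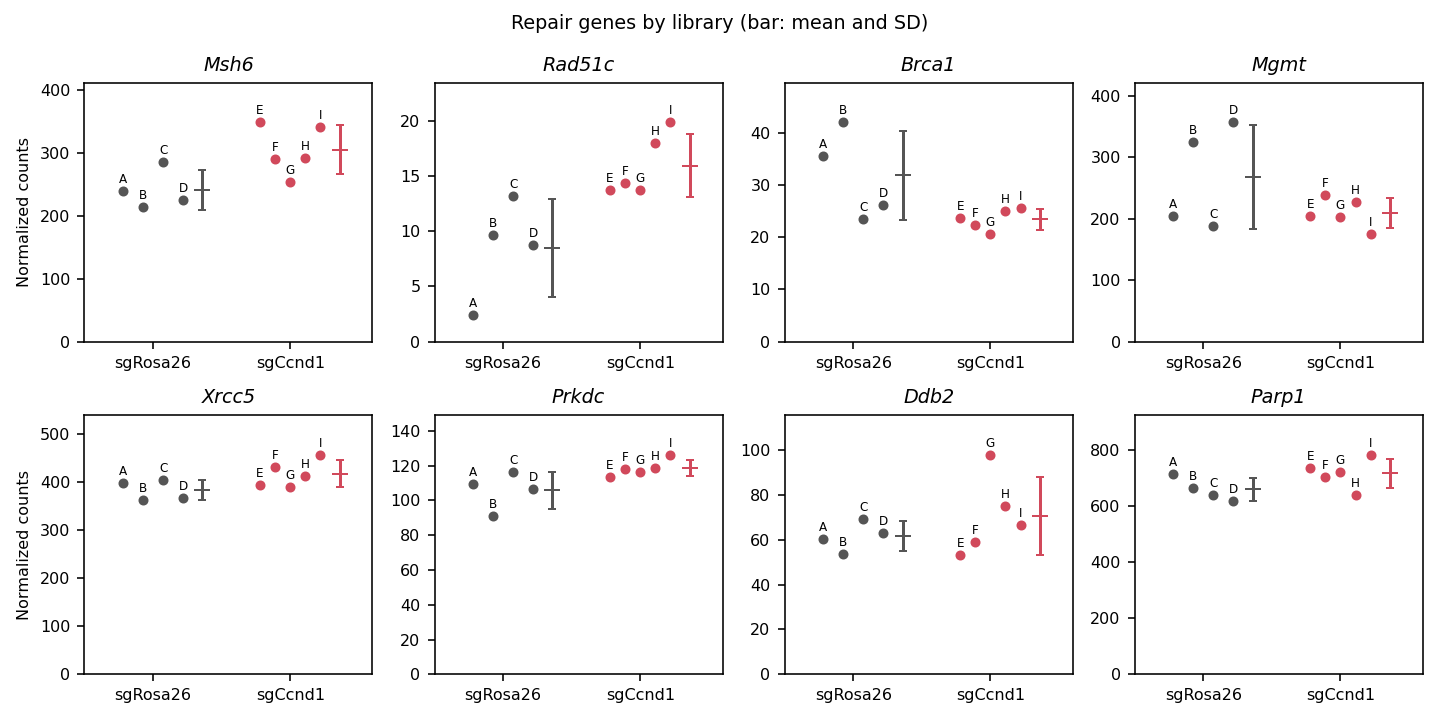
Normalized counts (vertical axis, from 0) of 8 repair genes in each library, labelled by letter, with the mean and SD of each group beside its points. Rad51c is higher in all 5 sgCcnd1 libraries than in any control. Msh6 and Prkdc are each higher than all controls in 4 of 5, and the groups overlap in every gene shown but Rad51c.

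In nucleotide excision repair all 6 members were tested, 4 above 0 and 2 below, and log2 fold changes ran from -0.12 to 0.16 with a median of 0.11. All 6 intervals lay within a 1.5-fold change. Xpc, the damage sensor of this route, was at 286, 288, 308 and 264 normalized counts in A to D and 282, 288, 338, 277 and 387 in E to I, or 0.12 (interval -0.12 to 0.37, limma adjusted p = 0.706). Ddb2, the subunit that finds ultraviolet lesions with DDB1, was at 60.2, 53.5, 69.5 and 63.1 in A to D and 53.4, 59.1, 97.9, 75 and 66.7 in E to I, or 0.16 (interval -0.22 to 0.55, limma adjusted p = 0.754). Both had 2 of 5 sgCcnd1 libraries above all controls, G among them. Without G the value for Ddb2 was 0.039, and when a library was left out Xpc ran from 0.046 to 0.17. Ercc1, part of the complex that cuts beside the lesion, was at 81.2, 87.7, 85.4 and 74.8 in A to D and 73.2, 87.7, 64.6, 79.0 and 76.6 in E to I. The log2 fold change of Ercc1 was -0.11 (interval -0.38 to 0.16), and -0.056 without G. Its partner Ercc4 was at -0.12, the scaffold Xpa at 0.10 (0.040 to 0.15 when a library was left out) and Ddb1 at 0.15 (0.069 to 0.24).

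In base excision, repair of breaks of a single strand and direct reversal, all 7 members were tested, 4 above 0 and 3 below, with log2 fold changes from -0.31 to 0.12 and a median of 0.02. Parp1, which marks strand breaks with poly(ADP-ribose), was at 716, 665, 641 and 619 normalized counts in A to D and 736, 703, 723, 641 and 783 in E to I. The log2 fold change was 0.12 (interval -0.06 to 0.30, limma adjusted p = 0.622), with 3 of 5 sgCcnd1 libraries above all controls. Ogg1, the glycosylase that removes oxidised guanine, was at 61.5, 78.0, 59.1 and 74.8 in A to D and 79.3, 74.3, 75.4, 81.0 and 53.9 in E to I, or 0.08 (interval -0.25 to 0.42). When a library was left out the value for Ogg1 ran from 0.020 to 0.19. The glycosylase Ung and the break repair proteins Parp2, Xrcc1 and Lig3 lay between -0.04 and 0.03.

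Mgmt, which takes alkyl groups off guanine without cutting the strand, had the lowest log2 fold change of this route, -0.31 (interval -0.71 to 0.09, limma adjusted p = 0.556). It was at 205, 324, 188 and 357 normalized counts in A to D and 204, 238, 204, 227 and 176 in E to I. The controls split into B and D, high, and A and C, at the level of sgCcnd1. Without B the log2 fold change was -0.20 and without D it was -0.15, while without C it was -0.46 with an unadjusted p of 0.0221.

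What the members share beyond their names was looked for in their promoters, since E2F factors, which cyclin D1 and its kinases release through RB, drive many genes of DNA synthesis and repair. RefSeq windows of GRCm38.p6, from 250 bases before to 50 bases after a start, were at hand for 40 of the 51 members. They were searched on both strands for the E2F-type letters TTTGGCGC, TTTCGCGC, TTTCCCGC and TTTGCCGC, a search added after the values had been seen. A match was found in 7 of 40 members, or 17.5%, against 2.6% of 27025 genes with a window, 9.59% of other repair genes and 30.4% of a list of proliferation genes. The cell cycle letters TTTGAA were found in 3 of 40 members, or 7.5%, against 20.2% of all genes. The 7 members are shown because both Msh6 and Rad51c are among them. Each line gives 30 bases 5′ to 3′ on the strand of the gene, with the match in capitals. A start is called internal where it lies over 100 bases inside the annotated gene.
Msh6, chr17:87975054-87975083, plus strand: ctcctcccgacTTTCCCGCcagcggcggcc
Rad51c, internal start, chr11:87404477-87404506, minus strand: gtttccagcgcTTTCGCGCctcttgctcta
Rad51c, outermost start, chr11:87404941-87404970, minus strand: cccccgcgaggGCGGGAAAagcaaggggtc
Brca2, chr5:150522442-150522471, plus strand: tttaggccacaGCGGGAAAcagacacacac
Xrcc6, internal start, chr15:82016312-82016341, plus strand: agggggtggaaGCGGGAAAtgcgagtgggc
Chek2, chr5:110839820-110839849, plus strand: cgggattagccGCGGGAAAccaagacgtcg
Mdc1, chr17:35841471-35841500, plus strand: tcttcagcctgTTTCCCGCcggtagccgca
Bard1, internal start, chr1:71103163-71103192, minus strand: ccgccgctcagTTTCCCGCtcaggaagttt

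Members with the same letters had differing values. Of the 6 tested, Rad51c was at 0.99, Msh6 at 0.34, Brca2 at 0.14, Xrcc6 at 0.11, Chek2 at 0.08 and Mdc1 at -0.15 on the log2 scale, and Bard1 was under the filter. A match is a description of letters and no evidence that a factor binds there. Annotated positions (GENCODE vM21, GRCm38) are chr17:87975062-87990892 for Msh6, chr11:87376645-87404954 for Rad51c, chr11:101488764-101551955 for Brca1 and chr16:37011786-37095417 for Polq. The exons of 22 of the 51 members overlap those of another annotated gene, in 16 by at least 50 bases on the other strand. The use of strand in counting is not given in the sources used here, so reads in such overlaps cannot be assigned with certainty, Ddb2 with Acp2, Lig3 with Rffl and Trp53bp1 with Tubgcp4 among them.

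A wider list of repair genes was read from the same fit. Of 95 further genes of the same routes and of translesion synthesis, 87 were tested, 46 above 0 and 41 below, with a median log2 fold change of 0.01 and 0 with an adjusted p under 0.05 in limma (0.0077% of all genes). DESeq2 and edgeR also called 0. At an unadjusted p under 0.05 there were 6, or 6.90% against 11.0% of all genes tested, 3 higher and 3 lower. The share is below that of all genes, so the genes named next are described and not read as a result about the list. Brip1, the helicase partner of BRCA1, was at 30.7, 25.4, 21.6 and 25.3 normalized counts in A to D and 38.1, 47.4, 38.2, 44 and 31.2 in E to I, a log2 fold change of 0.61 (interval 0.21 to 1.0, limma adjusted p = 0.289). All 5 sgCcnd1 libraries were above all controls, the highest control only just. Pms1, of the MutL family of mismatch repair, was at 0.43 (limma adjusted p = 0.338), with 3 of 5 libraries above all controls. On the other side Polk, a translesion polymerase, was at -0.40 (limma adjusted p = 0.307) and Mad2l2, a subunit of translesion polymerase zeta and of shieldin, at -0.34 (limma adjusted p = 0.334), with 5 of 5 libraries below all controls for each. In all, 4 of the 87 did not overlap between groups, where 3.89% of all genes tested did not.

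Targets of p53, the transcription factor that damage kinases switch on, had another distribution (plot of fold changes by list). Of 24 listed genes, which include no member and share Polk and Ercc5 with the wider repair list, 23 were tested, 15 below 0 and 8 above, with a median log2 fold change of -0.31. At an unadjusted p under 0.05 there were 10, all lower, or 43.5% against 5.74% of all genes. None had an adjusted p under 0.05 in limma, while DESeq2 called 3 of 23, Cdkn1a, Phlda3 and Ccng1 (0.8% of all genes were called), and edgeR called 0. Without library H the DESeq2 adjusted p of Ccng1 was 0.155, and Cdkn1a and Phlda3 were still called. Cdkn1a, which encodes the inhibitor p21, was at 416, 915, 420.5 and 617 normalized counts in A to D and 245, 218, 119, 153 and 160.4 in E to I, which is -1.69 on the log2 scale (limma adjusted p = 0.113). Phlda3 was at -1.21, Aen at -0.43, Ccng1 at -0.39 and Mdm2, the ligase that degrades p53, at -0.31. Ddb2 and Xpc, repair members often named as p53 targets in human cells, were at 0.16 and 0.12, and Ddb2 at 0.039 without library G. The difference between the lists was not tested, and that p53 targets were lower in these animals was known when the lists were written.

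**Figure D4:**
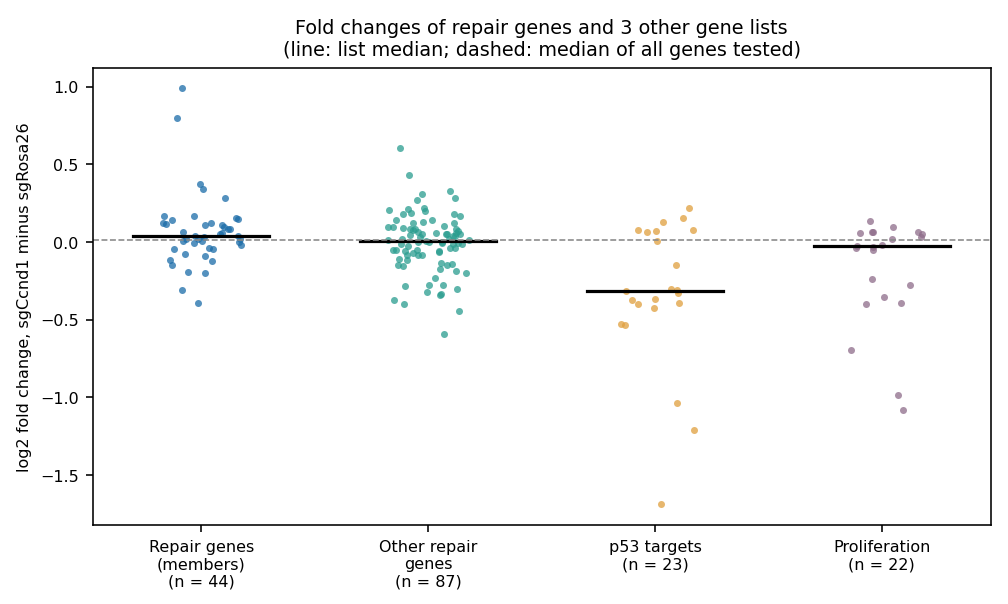
Log2 fold change (sgCcnd1 minus sgRosa26, vertical axis) of each tested gene in 4 lists, with the list median as a line and the median of all genes tested (0.01) as a dashed line. The 44 repair genes and 87 other repair genes centre on 0.04 and 0.01, the 23 p53 targets on -0.31 and the 22 proliferation genes on -0.03.

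Genes of proliferation, tested or not, had a median of 8.07 per kb in the controls and 5.98 in sgCcnd1. Each is a median across genes that include those under the filter, so the pair gives no fold change. Of 30 listed, 22 were tested, 9 above 0 and 13 below, with a median of -0.03 and 0 with an adjusted p under 0.05 in limma, edgeR or DESeq2. At an unadjusted p under 0.05 there were 2, or 9.09% against 11.0% of all genes tested, both lower, Cdc20 (-1.08, limma adjusted p = 0.338) and Cdk1 (-0.98, limma adjusted p = 0.426). Mki67, a marker of dividing cells, was at 30.7, 51.7, 35.7 and 35.9 normalized counts in A to D and 35.1, 26.9, 26.4, 29.0 and 8.52 in E to I, or -0.70 (interval -1.44 to 0.05), and -0.36 without library I.

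The highest values were unevenly spread over the libraries. Of the 44 tested members, 10 were highest in library I and 9 in library G, both sgCcnd1, against 1 to 6 in each of the other 7 libraries. The lowest value was in library B for 8 members and in each other library for 3 to 6. Such counts were not made over all genes tested, so they are not read as a trait of the repair genes. Library I, the shallowest, was thus highest for 10 members and lowest for 6, namely Nhej1, Palb2, Rpa2, Xrcc1, Ogg1 and Mgmt. Against the control mean of each gene, the median member was 0.12 higher in G on the log2 scale, 0.079 in F, 0.060 in I and 0.0085 in E, and at -0.0045 in H. In the controls it ran from -0.0062 in A to 0.059 in C. Each control is part of the mean it is set against, which holds its value near that mean. The sgCcnd1 values are therefore not ranked against those of the controls.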

How the data were processed

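Per the submitters' processing notes, Trim Galore 0.6.7, HISAT2 2.2.1, featureCounts 2.0.3 and DESeq2 (listed as 2.11.40.8) were used with mm10 (GRCm38). Annotation and strand setting are not given in the sources used here. The deposited signal is a normalized count per gene and library. In every library 100% of values were whole multiples (within 0.02) of the smallest value above 0, so reads could be recovered. For library H that step was too near 1 for an automatic check.

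Columns name a guide target and an animal, so a column was tied to a group but to no replicate. Whether the animals differed in batch is not stated. limma 3.58.1 (R 4.3.3; lmFit, eBayes with trend, two-sided, Benjamini-Hochberg over 12993 genes, threshold 0.05) was run on log2(normalized count + 1), which understates changes of low genes, for genes with a mean of at least 10. Alternatives were a pseudocount of 0.1 or 10, all genes with a read, a minimum mean of 100, quantile and 75th percentile scaling, robust eBayes, array weights, each library left out, and edgeR 4.0.16 (TMM and RLE) and DESeq2 1.42.0 on the recovered reads, which called 1 and 104 genes. DESeq2 left 254 adjusted p-values undefined. Fits were tested on simulated data. Reads are not molecules, so depth covers counting error only.

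The members and lists were chosen with earlier results of these data known. Library values are given for 16 fixed members and any with an unadjusted p under 0.05 or no overlap, and those of Parp3 and Rad51b were chosen after they were seen. Cdkn1a, Mdm2 and Mki67 were always named, and from each other list at most 4 genes with the smallest p under 0.05. Cd68 was chosen after its values were seen. Exon lengths came from GENCODE vM21, matched for 51 of 51 members. Figures were drawn with matplotlib 3.10.9.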

Additional observations from a re-analysis of the deposited data

Results flagged for a closer look

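Among 44 groups of values examined, from 22 genes in each group of animals, 2 held a library far from the rest, where chance gives about 1 in 20. Atm in sgCcnd1 library G had 248 normalized counts, while its 4 companions had 161 to 178. Ogg1 in sgCcnd1 library I had 53.9 normalized counts, while its 4 companions had 74.3 to 81.0. Without G the log2 fold change of Atm was -0.098.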

How the results depend on the processing

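No paired analysis was possible because column names give an animal and not the replicate number of the labels. Each mouse received either sgRosa26 or sgCcnd1, and the groups differ in size. A shared replicate number would therefore not by itself make a pair, and the labels state no pairing of animals. The count models without library H were added after the data were seen.

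The number of repair genes called was 0 in all 22 alternatives. Repair genes at an unadjusted p under 0.05, 2 higher and 0 lower, were 1 higher with a minimum mean of 100 (fewer genes tested) and 1 lower without the filter (Polq). They were 2 to 4 higher and 0 to 2 lower when a library was left out. Without A these were Ddb1, Msh6, Rad51b and Xrcc2 higher and Mgmt lower, and without C Brca1 and Mgmt were lower. The median log2 fold change of the members ran from 0.0039 (75th percentile scaling) to 0.062 (without C). Of 323 recomputed values of the 15 named members tested, 317 kept sign and call, and 0 became called. The sign of Atm turned with 75th percentile scaling (-0.026), and when a library was left out it ran from -0.098 to 0.068. Lig4 ran from -0.21 to 0.033 and Gt(ROSA)26Sor from -0.11 to 0.16.

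Ccnd1 stayed between -1.11 and -0.96 when a library was left out. Its limma adjusted p passed 0.05 upwards once B, D, F, H or I was dropped. It was 0.0294 without A, 0.0127 without C, 0.00974 without E and 0.0422 without G. In edgeR without H Ccnd1 was at -1.02 (adjusted p = 0.056). Genes called lower, 1 in limma, were 2 with quantile normalization, 70 in DESeq2, 25 in DESeq2 without H, 0 in edgeR without H and 0 to 2 when a library was left out. Genes called higher, 0 in limma, were 34 in DESeq2 and 16 in DESeq2 without H. The cause was not tested. Depth limits the 7 members under the filter and Rad51c, which have few reads per library.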
